A study of Danio rerio with 10 samples.

Results

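The genes described here encode the contractile apparatus of muscle and the proteins that store, pump and buffer its calcium. They were chosen by gene symbol: troponins, myosin heavy and light chains, tropomyosins, parvalbumins, alpha-actinins, striated muscle actins, myosin-binding protein C, the pump family of atp2a1, calsequestrins, ryanodine receptors, titins, ldb3, nebulin, myozenins, myomesins, muscle creatine kinases and smyd1. The rule took 73 of the 15617 probe sets in the table. Of these, 4 are array control probe sets for actin, which stayed outside the fit, while the other 69 entered it among 15502. Of the 69, 66 carry 1 gene symbol and stand for 55 of the 8793 genes so read, and 3 carry several symbols and are not named. The rule reads gene symbols and no measured value, but it was chosen with earlier results of these data known. No filter on low values was applied. The mean log2 value of 63 of the 69 lay above the 25th percentile of all probe set means. By current symbol, 20 probe sets were grouped as forms of fast muscle, 3 as slow, 9 as cardiac, 16 as shared by striated muscles, 15 as smooth muscle or nonmuscle forms and 3 were not classed. The classes were assigned from general knowledge of zebrafish gene names.

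In a sarcomere, thick filaments of myosin pull on thin filaments of actin, which nebulin and titin help to space and which are anchored by alpha-actinin at the Z-disc. Calcium released from the sarcoplasmic reticulum binds troponin C, troponin T and troponin I move tropomyosin off the actin, and the filaments slide. Relaxation needs the reticulum's calcium pump, and in fast fibres of fish the cytosolic buffer parvalbumin takes up calcium as well. At 3 days of development a zebrafish embryo swims with a trunk made mostly of fast fibres, with a thin superficial layer of slow fibres and a beating heart.

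Total RNA of whole wild-type embryos was measured at 72 h after fertilization on 1-colour Affymetrix arrays. There were 3 arrays for each of the control, Atg7 and dual morphant groups, the dual group having received the Atg7 and the Bdh2 morpholino together, and Bdh2 morphants had 1. Injections were made at the 1- to 2-cell stage in all groups, in volumes of 1 to 2 nL with a morpholino concentration of 130 micromol/L, and whether that concentration held for each morpholino of the dual injection or for their sum is not given in the sources used here. A morpholino is an antisense oligonucleotide that blocks translation or splicing, so the knockdown is transient and reaches every tissue, and Atg7 is an enzyme of autophagosome formation while Bdh2 is a short-chain dehydrogenase linked to siderophore synthesis in mammals and zebrafish. The control morpholino's sequence, the strain, and whether replicates came from separate clutches are not given, so a p-value here rests on the variation among these arrays, and that variation may be technical alone.

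Array medians lay between 6.32 and 6.38 on the log2 scale, and the median difference over all probe sets shifted by at most 0.0469 in any comparison. The bdh2 probe set read 7.17, 7.07 and 7.27 in controls, 7.38, 7.28 and 7.17 in dual morphants and 7.47 on the Bdh2 array, which does not check a morpholino that acts on translation, and no probe set is named atg7 in the annotation used here. The actin control probe sets read the 3' end of their transcript above the 5' end by 3.45 ± 0.067 log2 units in controls, 3.93 ± 0.11 in Atg7 morphants and 3.86 ± 0.044 in dual morphants (SD, n = 3) and by 4.30 on the Bdh2 array, and for GAPDH the same gap was 1.58 ± 0.054, 1.67 ± 0.12, 1.70 ± 0.026 and 1.70. Markers of other tissues were counted too. Over all probe sets, 16.7% rose and 15.9% fell in dual morphants, and 6.26% and 3.64% in Atg7 morphants (limma, adjusted p under 0.05). Neuron markers were higher in dual morphants for 10 of 13 probe sets and lower for 1, and their mean log2 level was 8.36 to 8.38 in controls, 8.63 to 8.72 in Atg7 morphants, 8.80 to 8.82 in dual morphants and 8.22 on the Bdh2 array. All 9 red cell probe sets were lower in Atg7 and in dual morphants, with means of 9.61 to 9.69, 8.52 to 8.58, 7.90 to 7.95 and 8.10 in the same order. For epidermis, 2 of 9 probe sets were higher in dual morphants and none was lower (10.08 to 10.13, 10.30 to 10.34, 10.27 to 10.31 and 10.38). For fibroblasts and skeleton, 2 of 10 were higher and 4 lower (11.07 to 11.14, 11.13 to 11.19, 10.95 to 10.996 and 10.71), for liver 1 of 6 was higher and 3 lower (10.14 to 10.21, 10.19 to 10.23, 9.80 to 9.85 and 9.52), and for myeloid cells 1 of 10 was higher and 2 lower (5.99 to 6.08, 6.06 to 6.13, 5.88 to 5.97 and 5.82). No value in the table was at 0, the lowest being 2.48. The part of 3' bias and of these tissues in the muscle results was not tested.

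Over the 69 probe sets as a whole, muscle genes fell more often than they rose in the dual morphants, and most of all on the lone Bdh2 array. The cardiac class did not follow that order between the dual morphants and the Bdh2 array. With Atg7 knockdown alone fewer of the 69 passed the test, though the share that fell was above that of all probe sets. Against controls, 8 of the 69 probe sets rose and 25 fell in dual morphants, or 11.6% and 36.2%, where 16.7% of all 15502 probe sets rose and 15.9% fell (limma, Benjamini-Hochberg adjusted p under 0.05, 32.5% called in all). In Atg7 morphants 4 rose and 9 fell, or 5.8% and 13%, against 6.26% and 3.64% of all probe sets (9.91% called). The Bdh2 array stood above the controls for 8 and below them for 33, against 15% and 13.2% of all (28.2% called). That array has no replicate, and its tests borrow the spread of the other groups. These 3 comparisons share their control arrays. Without the first control replicate the Atg7 count of 13 came to 8. In whole embryos, fewer muscle cells and less of a transcript in each muscle cell cannot be told apart.

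Dual morphants were then set against Atg7 morphants, which had received no Bdh2 morpholino. If the stated concentration held for the sum of both morpholinos, dual embryos also received less Atg7 morpholino. The added Bdh2 morpholino and a lower Atg7 dose could then not be told apart. Of the 69 probe sets, 8 were higher and 27 lower in dual morphants, or 11.6% and 39.1%, where 15.8% of all probe sets were higher and 17.2% lower (33% called). The median log2 difference over the 69 was -0.11, against 0.012 over all probe sets. In the dual morphants against controls the median was -0.08 with a range of -1.81 to 2.08, and in Atg7 morphants it was -0.03 with a range of -0.62 to 0.40. Called changes of at least 2-fold numbered 2 up and 3 down among the 69 in dual morphants against controls. Over all 15502 probe sets they numbered 115 up and 117 down. In Atg7 morphants no member reached 2-fold, where 23 of all probe sets did so upward and 7 downward. On the Bdh2 array the member differences from controls ran from -3.12 to 1.66.

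**Figure D1:**
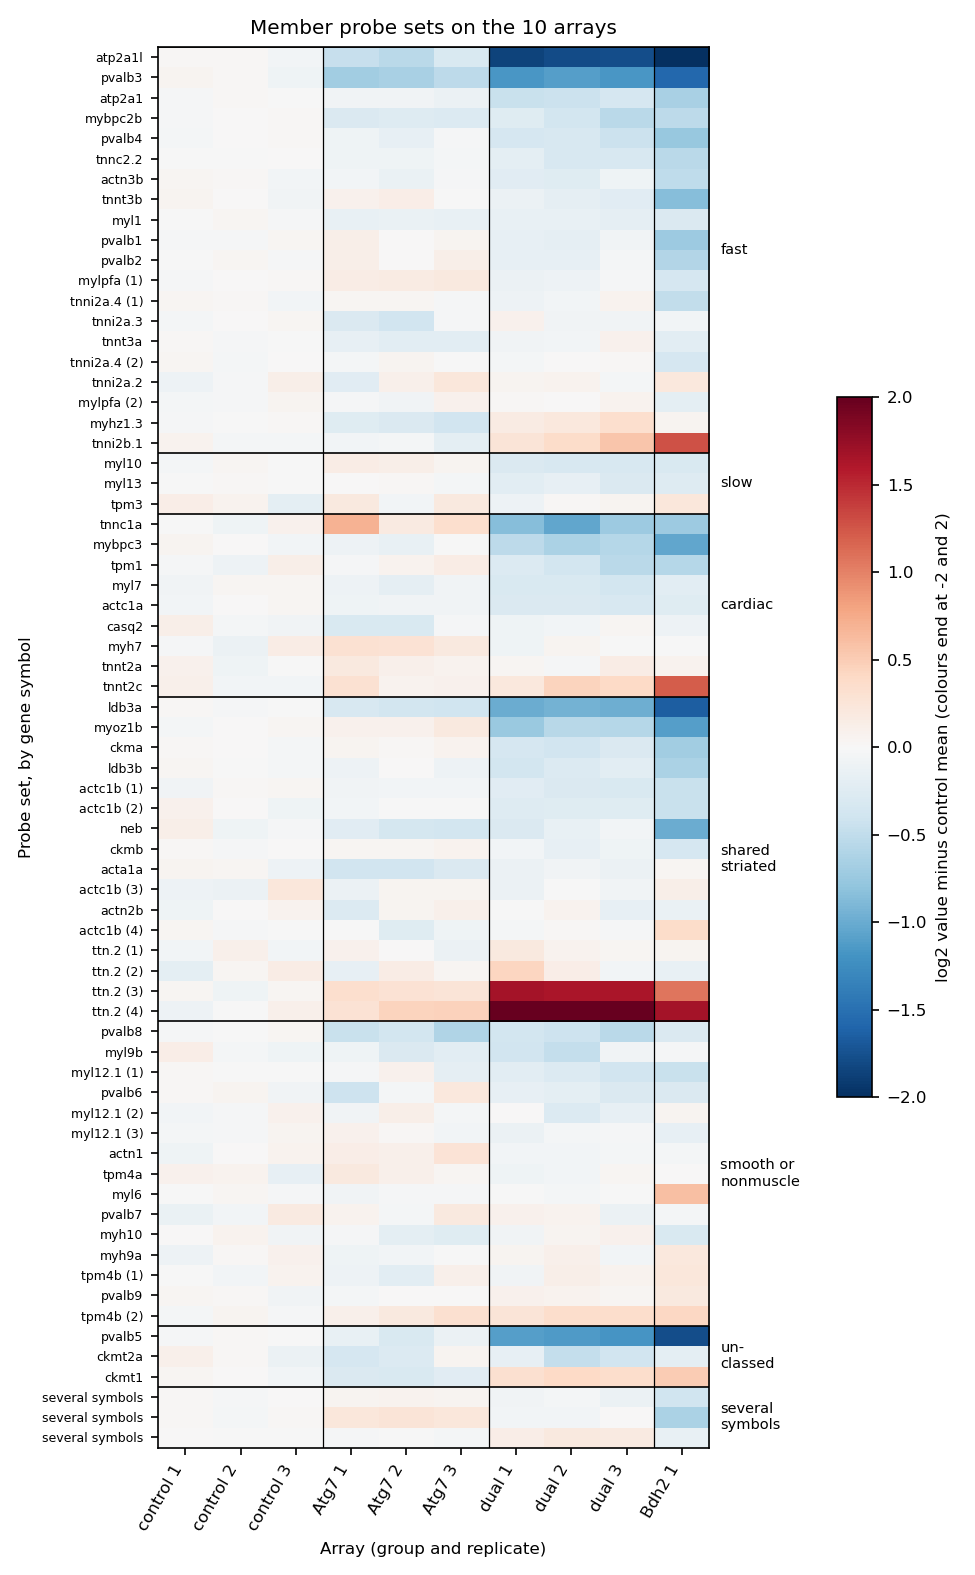
Log2 value minus the control mean for each of the 69 muscle probe sets (rows, by class) on each of the 10 arrays (columns, by group). Blue is below and red above the control mean, and the deepest blue lies in the dual and Bdh2 columns for atp2a1l, pvalb3, ldb3a and pvalb5, with ttn.2 the deepest red (colours end at -2 and 2, and bracketed numbers tell probe sets of 1 gene apart).

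Falls were spread over the fast, cardiac and shared striated forms. Over all probe sets, 16.7% rose and 15.9% fell in dual morphants, and 6.26% and 3.64% in Atg7 morphants. In the fast class the shares were 10% and 35% in dual morphants and 0% and 20% in Atg7 morphants. Of the 20 fast probe sets, 2 rose and 7 fell in dual morphants against controls (median -0.13), none rose and 4 fell in Atg7 morphants (median -0.08), and 1 was higher and 14 lower on the Bdh2 array (median -0.49). Among the 9 cardiac probe sets, 1 rose and 5 fell in dual morphants, or 11.1% and 55.6% (median -0.30). In Atg7 morphants 1 of them rose and none fell, or 11.1% and 0% (median 0.06). On the Bdh2 array the cardiac median was -0.21, against -0.30 in dual morphants. The cardiac mean log2 level of that array, 7.96, lay above the 7.89 to 7.92 of dual morphants. Of the 16 shared striated probe sets, 2 rose and 6 fell in dual morphants, or 12.5% and 37.5% (median -0.10). Of the 3 slow ones none rose and 2 fell, or 0% and 66.7% (median -0.23). The slow class had a median of -0.26 on the Bdh2 array. Its mean log2 level there, 11.96, lay above the 11.87 to 11.92 of dual morphants. The 15 smooth muscle or nonmuscle probe sets include pvalb6, pvalb7, pvalb8 and pvalb9. Their median of -0.04 lay nearer to 0 than those of the fast, slow, cardiac and shared classes. Of them 1 rose and 3 fell, or 6.67% and 20%, against 16.7% and 15.9% of all probe sets. Differences between the classes were not tested. The mean log2 level of the fast class was 11.44 to 11.45 in controls and 11.32 to 11.36 in Atg7 morphants. It was 11.20 to 11.24 in dual morphants and 10.94 on the Bdh2 array, so the means of the 4 groups did not overlap. The median log2 level of the class did not step down in this order. It was 12.483 to 12.535 in controls, 12.386 to 12.438 in Atg7 morphants and 12.525 to 12.701 in dual morphants. On the Bdh2 array the median was again lowest. The class holds large dual morphant falls of atp2a1l (-1.81) and pvalb3 (-1.15), whose part in the mean was not tested.

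**Figure D2:**
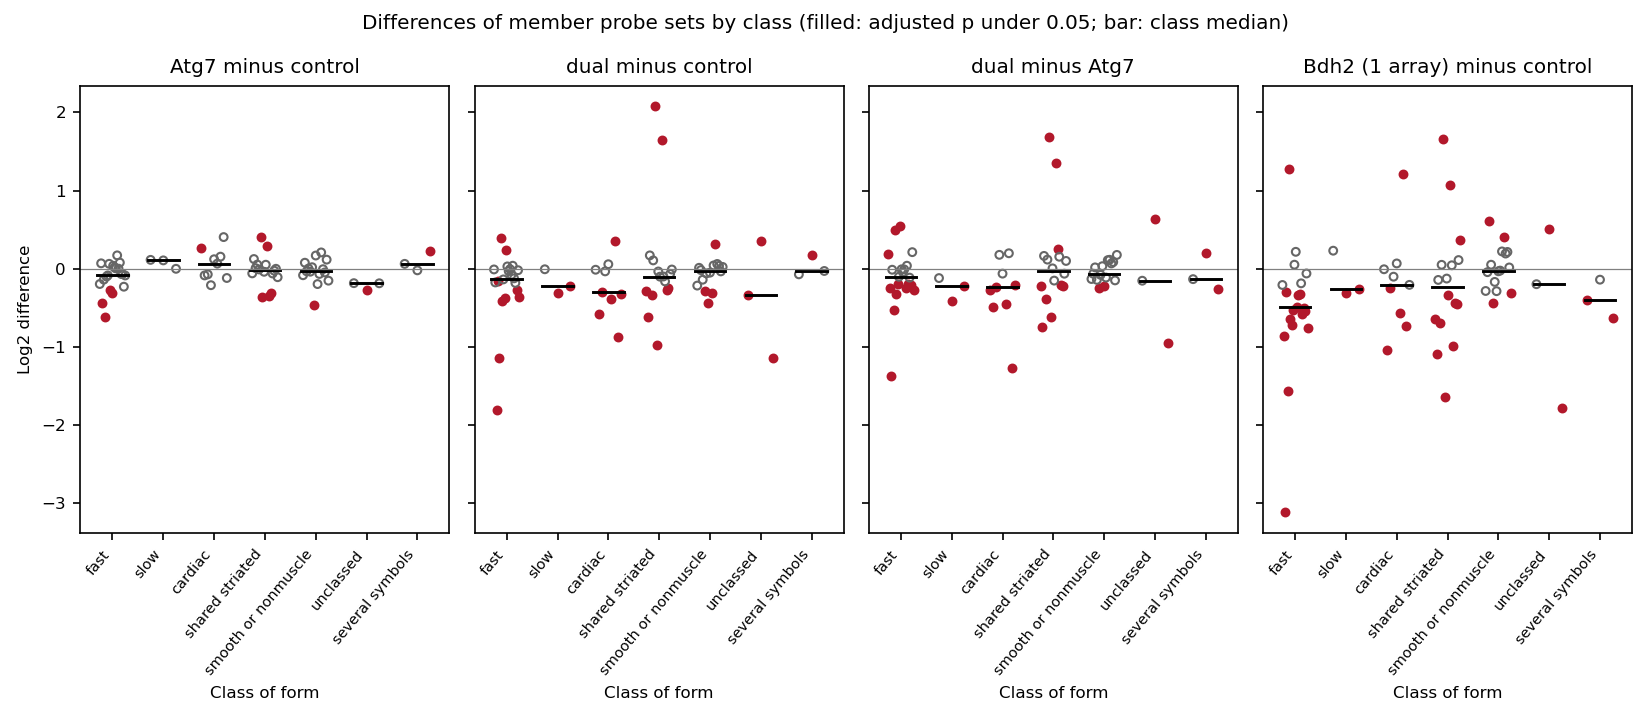
Log2 difference of each muscle probe set in 4 comparisons, grouped by class. Filled points passed an adjusted p of 0.05 and bars are class medians, and the fast class on the Bdh2 array has the lowest median among the fast, slow, cardiac and shared classes, -0.49.

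Among the calcium pumps, atp2a1l fell, and in dual morphants and on the Bdh2 array its difference from controls was the lowest of all members. It is a second zebrafish gene of the fast-fibre sarcoplasmic reticulum calcium pump, whose better known form is atp2a1. The atp2a1l probe set read 10.23, 10.23 and 10.14 in controls, 9.74, 9.65 and 9.89 in Atg7 morphants, 8.35, 8.41 and 8.43 in dual morphants and 7.08 on the Bdh2 array. The 4 groups formed 4 separate steps, with the Bdh2 array the lowest. Against controls the log2 difference was -0.44 ± 0.069 (SE) in Atg7 morphants (limma, adjusted p = 0.00209) and -1.81 ± 0.069, or 3.50-fold lower, in dual morphants (adjusted p = 3.18e-09). The Bdh2 array lay 8.70-fold below the controls (-3.12 ± 0.098, adjusted p = 1.3e-09).

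The fast pump gene atp2a1 itself, read at 13.38, 13.42 and 13.38 in controls, moved less. These values lie nearer than those of atp2a1l to the highest values of the control arrays, 14.87 to 14.90. Whether differences come out smaller near the top of the range was not tested. Its values were 13.32, 13.33 and 13.27 in Atg7 morphants, 12.94, 12.96 and 13.06 in dual morphants and 12.75 on the Bdh2 array. Dual morphants lay below both other replicated groups without overlap, by 0.41 log2 units under controls (-0.41 ± 0.057, adjusted p = 0.000195) and by 0.32 under Atg7 morphants (-0.32, adjusted p = 0.00108). For Atg7 morphants the difference from controls was -0.09 (adjusted p = 0.379). The probe set of casq2, the cardiac form of calsequestrin, which stores calcium in the reticulum, passed no comparison (-0.03 in dual morphants, adjusted p = 0.805).

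Parvalbumins split by gene, although pvalb1 and pvalb2 were read nearer than the others to the top of the array's range. Its part in the split was not tested. Of the 9 parvalbumin genes measured, pvalb3 and pvalb5 fell furthest, pvalb4 and pvalb8 fell less, and pvalb1, pvalb2, pvalb6, pvalb7 and pvalb9 did not pass the test between dual morphants and controls. For pvalb3 the values were 10.78, 10.75 and 10.64 in controls, 10.04, 10.08 and 10.20 in Atg7 morphants, 9.56, 9.62 and 9.56 in dual morphants and 9.16 on the Bdh2 array. Every Atg7 value lay below every control and above every dual value. Its fall of 1.54-fold in Atg7 morphants (-0.62 ± 0.065, adjusted p = 0.000116) was the largest of any member there, and in dual morphants it was 2.21-fold lower (-1.15 ± 0.065, adjusted p = 9.89e-08).

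In contrast to pvalb3, pvalb5, which was placed in none of the classes, did not pass the test in Atg7 morphants. It read 9.50, 9.54 and 9.52 in controls, 9.37, 9.22 and 9.41 in Atg7 morphants, 8.42, 8.38 and 8.34 in dual morphants and 7.75 on the Bdh2 array. All dual values were below all Atg7 values, which were themselves below all controls. The log2 difference from controls was -0.19 in Atg7 morphants (limma, adjusted p = 0.087), -1.14 ± 0.064 in dual morphants (adjusted p = 9.15e-08) and -1.78 ± 0.090 on the Bdh2 array (adjusted p = 7.22e-08). Between Atg7 and dual morphants pvalb3 differed by -0.53 (adjusted p = 6.83e-05) and pvalb5 by -0.96 (adjusted p = 4.34e-07).

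The parvalbumin read highest on these arrays, pvalb2, held at 13.93, 13.97 and 13.91 in controls, 14.05, 13.94 and 14.05 in Atg7 morphants, 13.77, 13.77 and 13.90 in dual morphants and 13.36 on the Bdh2 array. The Bdh2 array stood lowest (-0.58 against controls ± 0.089, adjusted p = 0.00049). Its dual morphant difference from controls was -0.12 (adjusted p = 0.159) and that from Atg7 morphants -0.20 (adjusted p = 0.0272), a call that ended without the first or the third Atg7 or the first or the second dual replicate (adjusted p = 0.0759 to 0.101). This call ended with the replicate number as a block too (limma, adjusted p = 0.0502). The fast-class pvalb4 differed by -0.36 in dual morphants (adjusted p = 0.000763) and -0.76 on the Bdh2 array (adjusted p = 6.37e-05). For pvalb1 the dual difference was -0.14 (adjusted p = 0.1) and that of the Bdh2 array -0.72 (adjusted p = 6.68e-05).

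The gene pvalb8 had another order of groups. It read 8.90, 8.91 and 8.96 in controls, 8.48, 8.56 and 8.32 in Atg7 morphants, 8.56, 8.51 and 8.39 in dual morphants and 8.64 on the Bdh2 array. Atg7 and dual morphants overlapped each other and both lay below the controls, by 0.47 (-0.47 ± 0.073, adjusted p = 0.00192) and 0.44 log2 units (-0.44, adjusted p = 0.000675). The Bdh2 array differed by -0.29 and did not pass (adjusted p = 0.0566). In the current zebrafish RefSeq gene order (assembly GRCz12tu), pvalb8, pvalb4, pvalb1 and pvalb5 are direct neighbours, and pvalb9, pvalb3 and pvalb2 are another such run, so in both runs a gene that passed the test between dual morphants and controls stands beside one that did not pass it.

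**Figure D3:**
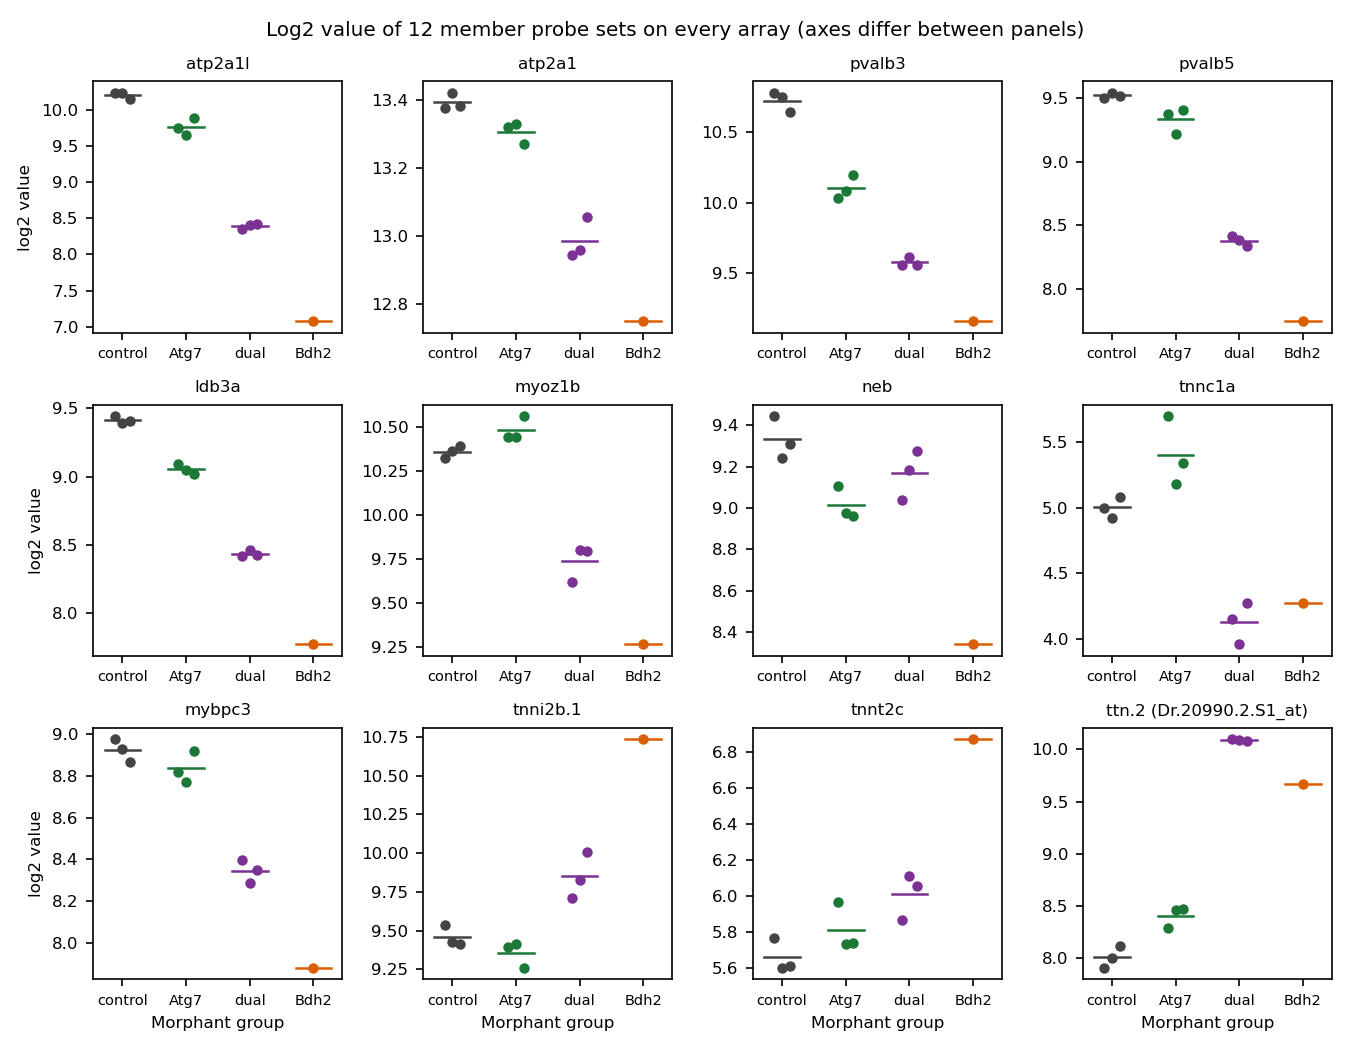
Log2 values of 12 muscle probe sets on every array, with 1 point for each array, lines at the group means and a separate axis range in each panel. The atp2a1l, pvalb3, pvalb5 and ldb3a points step down from controls to Atg7 to dual morphants to the Bdh2 array, and ttn.2 points are high in dual morphants and on the Bdh2 array.

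Thin filament genes moved in both directions. The troponin complex is made of the calcium sensor troponin C, the inhibitory troponin I and the tropomyosin-binding troponin T. Troponin C of the heart, tnnc1a, read 4.998, 4.92 and 5.08 in controls, 5.70, 5.18 and 5.34 in Atg7 morphants, 4.15, 3.96 and 4.27 in dual morphants and 4.27 on the Bdh2 array, low in the array's range throughout. Dual values lay below all others of the replicated groups, with a log2 difference of -0.87 ± 0.120 from controls (adjusted p = 0.000166) and -1.28 ± 0.120 from Atg7 morphants (adjusted p = 8.43e-06). They were also under 4.66, the 25th percentile of all probe set means, so no fold is given. The fast troponin C gene tnnc2.2 differed from controls by -0.28 in dual morphants (adjusted p = 0.00304) and by -0.54 on the Bdh2 array (adjusted p = 0.000447).

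Members of the troponin I and T families rose as well as fell. The fast troponin I gene tnni2b.1 read 9.54, 9.43 and 9.41 in controls, 9.40, 9.41 and 9.26 in Atg7 morphants, 9.71, 9.83 and 10.01 in dual morphants and 10.73 on the Bdh2 array. It was higher in dual morphants than in any control array, by 0.39 ± 0.081 (adjusted p = 0.00278), and 2.42-fold higher on the Bdh2 array (1.27 ± 0.114, adjusted p = 8.08e-06). The other fast troponin I gene read well above the floor, tnni2a.4, did not follow it: its probe sets differed from controls by -0.01 and -0.03 in dual morphants (adjusted p = 0.949 and 0.756) and by -0.33 and -0.49 on the Bdh2 array (adjusted p = 0.00865 and 0.00165).

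For troponin T, the cardiac family gene tnnt2c read 5.77, 5.60 and 5.61 in controls, 5.97, 5.73 and 5.74 in Atg7 morphants, 5.86, 6.11 and 6.05 in dual morphants and 6.87 on the Bdh2 array. Its dual difference was 0.35 (adjusted p = 0.0084), and the Bdh2 array alone was far above the rest, 2.32-fold over controls (1.21 ± 0.123, adjusted p = 2.28e-05). The heart troponin T gene tnnt2a passed no comparison (0.06 in dual morphants, adjusted p = 0.601). Fast troponin T tnnt3b read 13.14, 13.08 and 13.01 in controls, 13.16, 13.21 and 13.07 in Atg7 morphants, 12.96, 12.89 and 12.86 in dual morphants and 12.22 on the Bdh2 array, where it was clearly lowest (-0.86 ± 0.090, adjusted p = 2.9e-05). Its dual values lay below all controls with a difference of -0.18 that missed the threshold (adjusted p = 0.0522).

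The second fast troponin T gene, tnnt3a, read 12.40, 12.36 and 12.38 in controls, 12.22, 12.16 and 12.17 in Atg7 morphants, 12.32, 12.33 and 12.47 in dual morphants and 12.17 on the Bdh2 array. Atg7 values were lowest among the replicated groups, but the difference from controls, -0.20, did not pass (adjusted p = 0.0592), and dual morphants lay 0.19 above Atg7 morphants (adjusted p = 0.0316), a call that ended without the second or the third replicate of either group (adjusted p = 0.0511 to 0.109). A replicate block also ended the tnnt3a call (limma, adjusted p = 0.0596). The tropomyosin gene tpm1, which lies along the thin filament in the heart, read 6.56, 6.48 and 6.70 in controls, 6.55, 6.65 and 6.72 in Atg7 morphants, 6.31, 6.22 and 6.04 in dual morphants and 6.01 on the Bdh2 array. Dual values were lower than all control and Atg7 values, by 0.39 (-0.39 ± 0.084, adjusted p = 0.00367) and 0.45 (-0.45, adjusted p = 0.00143).

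Actins of striated muscle make the thin filament itself. The actc1b probe set with the highest mean of the shared class read 14.75, 14.83 and 14.86 in controls, 14.75, 14.76 and 14.76 in Atg7 morphants, 14.60, 14.53 and 14.51 in dual morphants and 14.37 on the Bdh2 array. Dual values were below all others of the replicated groups (-0.27 ± 0.057 against controls, adjusted p = 0.00315), but quantile normalization ended the call (-0.18, adjusted p = 0.119). A second actc1b probe set, whose suffix marks probes that may bind related transcripts, differed by -0.25 (adjusted p = 0.00594), and with quantile normalization by -0.10 (adjusted p = 0.304). The remaining pair of actc1b probe sets read between 3.30 and 3.90 on all arrays, under the 25th percentile of all probe set means (4.66), and did not pass in dual morphants (-0.07 and -0.01, adjusted p = 0.639 and 0.925).

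Array control probe sets read the 3', middle and 5' parts of the actc1b transcript, without a test. The 3' set differed from controls by -0.07 in Atg7 morphants, -0.28 in dual morphants and -0.44 on the Bdh2 array. In the middle they were -0.00, -0.37 and -0.61. At the 5' end the same differences were -0.54, -0.69 and -1.28 on one set, and -0.22, -0.39 and -0.84 on another whose suffix marks probes that may bind related transcripts. Both 5' sets thus lay further below the controls than the 3' set in every morphant group, by unequal amounts. Most probe sets of this array design lie near the 3' end, and where each member's probes lie was not examined.

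**Figure D4:**
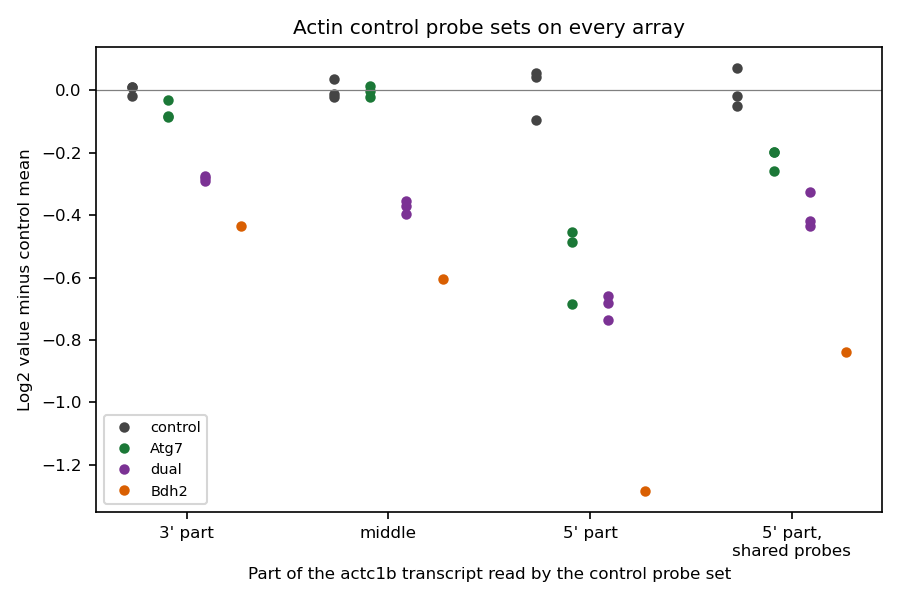
Log2 value minus the control mean for the array's actin control probe sets in the 3', middle and 5' parts of the actc1b transcript, 1 point for each array. From left to right the dual morphant means lie at -0.28, -0.37, -0.69 and -0.39 and the Bdh2 array at -0.44, -0.61, -1.28 and -0.84, the last set being the one with shared probes.

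Another skeletal actin gene, acta1a, read 12.49, 12.48 and 12.34 in controls, 12.05, 12.06 and 12.15 in Atg7 morphants, 12.32, 12.38 and 12.32 in dual morphants and 12.48 on the Bdh2 array. Only Atg7 morphants were lower than the controls without overlap (-0.35 ± 0.063, adjusted p = 0.00452). Dual morphants lay 0.25 above Atg7 morphants (adjusted p = 0.00913) and did not pass against controls (-0.10, adjusted p = 0.26). The actin gene actc1a was placed in the cardiac class by its name and had the highest mean there. It read 13.23, 13.29 and 13.32 in controls and 13.19, 13.21 and 13.21 in Atg7 morphants. Its values were 12.98, 12.98 and 12.96 in dual morphants and 13.03 on the Bdh2 array. The control mean of 13.28 lay near that of fast atp2a1 (13.39) and above those of cardiac myl7 (9.44) and mybpc3 (8.92). Whether its signal came from heart or trunk was not tested. Dual values were lower than every control and Atg7 value (-0.30 ± 0.054 against controls, adjusted p = 0.00107).

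Nebulin, the giant protein that runs along the thin filament, had a low value chiefly on the Bdh2 array. The neb probe set read 9.44, 9.24 and 9.31 in controls, 9.11, 8.97 and 8.96 in Atg7 morphants, 9.04, 9.19 and 9.28 in dual morphants and 8.34 on the Bdh2 array. Dual values overlapped both other groups, and the dual difference from controls was -0.16 (adjusted p = 0.14). The Atg7 difference of -0.32 ± 0.079 (adjusted p = 0.0273) was lost without the first or the third control or the second or the third Atg7 replicate (adjusted p = 0.0659 to 0.1). It was also lost with the replicate number as a block (limma, adjusted p = 0.0587). The Bdh2 array lay 1.99-fold below controls (-0.99 ± 0.112, adjusted p = 5.09e-05).

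In the thick filament, the myosin heavy chain gene myhz1.3 of fast fibres moved in opposite directions in the replicated groups. It read 12.35, 12.37 and 12.40 in controls, 12.13, 12.08 and 11.98 in Atg7 morphants, 12.53, 12.59 and 12.71 in dual morphants and 12.42 on the Bdh2 array. All Atg7 values lay below and all dual values above the controls, so that the dual morphants stood 0.55 ± 0.066 above Atg7 morphants (adjusted p = 6.25e-05). Against controls the differences were -0.31 ± 0.066 (adjusted p = 0.0128) and 0.24 (adjusted p = 0.0158), the latter lost without the first or the second control or the third dual replicate (adjusted p = 0.0505 to 0.0639). The fast myosin heavy chain genes are near-identical copies, so their probes may read more than 1 of them.

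Cardiac myosin heavy chain myh7 read 7.98, 7.89 and 8.15 in controls, 8.30, 8.29 and 8.20 in Atg7 morphants, 7.92, 8.05 and 7.99 in dual morphants and 7.996 on the Bdh2 array. Atg7 values were above all the others, by 0.26 over controls (adjusted p = 0.0476), a call that ended in 10 of 16 other settings, among them each left-out replicate but the third control (adjusted p = 0.0511 to 0.175 over the 10). Dual morphants lay 0.27 below Atg7 morphants (-0.27, adjusted p = 0.014; without the first dual replicate 0.0514). The slow-class light chain myl10 read 12.98, 13.07 and 13.01 in controls, 13.17, 13.14 and 13.08 in Atg7 morphants, 12.73, 12.71 and 12.71 in dual morphants and 12.71 on the Bdh2 array. Dual values were below all control and Atg7 values (-0.31 ± 0.056 against controls, adjusted p = 0.0012).

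Among further light chains, the slow-class myl13 differed by -0.23 in dual morphants (adjusted p = 0.00927), and myl7, the cardiac regulatory light chain, by -0.32 (adjusted p = 0.00142). For the slow myosin heavy chain gene smyhc1, which the symbol rule does not take, the dual difference was -0.03 (adjusted p = 0.791), and prox1a, a transcription factor of slow fibres that other tissues also use, was higher by 0.47 (adjusted p = 0.000192). The fast regulatory light chain mylpfa, on its 2 probe sets, differed by -0.08 and 0.04 (adjusted p = 0.311 and 0.701). The tropomyosin tpm3 of the slow class passed no comparison.

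Myosin-binding protein C, which ties myosin filaments together, fell in its cardiac and fast forms. The cardiac gene mybpc3 read 8.97, 8.93 and 8.86 in controls, 8.82, 8.77 and 8.92 in Atg7 morphants, 8.40, 8.29 and 8.35 in dual morphants and 7.88 on the Bdh2 array. Dual values were well under all control and Atg7 values, and the Bdh2 array was lower again (-0.58 ± 0.064, adjusted p = 3.1e-05, and -1.04 ± 0.090, adjusted p = 6.4e-06, both against controls). The fast gene mybpc2b differed by -0.38 in dual morphants (adjusted p = 0.00161) and by -0.28 in Atg7 morphants (adjusted p = 0.033), the second lost without any of the control or Atg7 replicates or without the second dual replicate (adjusted p = 0.052 to 0.0978). A block on the replicate number ended that second call as well (limma, adjusted p = 0.0649).

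Titin, the elastic protein that spans from the Z-disc to the middle of the sarcomere, rose in every morphant group on the ttn.2 probe sets that gave signal. The ttn.2 probe set with the highest mean read 7.91, 8.001 and 8.12 in controls, 8.29, 8.46 and 8.47 in Atg7 morphants, 10.10, 10.09 and 10.08 in dual morphants and 9.67 on the Bdh2 array. The next ttn.2 probe set read 7.85, 7.72 and 7.85 in controls, 8.14, 8.09 and 8.06 in Atg7 morphants, 9.47, 9.43 and 9.44 in dual morphants and 8.88 on the Bdh2 array. On both, the Atg7 arrays lay a little above the controls, and the dual arrays and the Bdh2 array far above them. Dual morphants were 4.22-fold (2.08 ± 0.071, adjusted p = 1.27e-09) and 3.13-fold (1.64 ± 0.059, adjusted p = 1.93e-09) over controls, the largest rises among the members. In Atg7 morphants the same differences were 0.40 (adjusted p = 0.00451) and 0.29 (adjusted p = 0.0104), the second lost without the second control replicate (adjusted p = 0.0555).

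The remaining ttn.2 probe sets did not pass. The higher of them had means of 3.92 in controls and 4.09 in dual morphants (0.17, adjusted p = 0.34), and the lower had means of 2.89 and 2.99 (0.11, adjusted p = 0.326). Both lay under 4.66, the 25th percentile of all probe set means, in all groups. The rise of ttn.2 therefore rests on 2 of its 4 probe sets, and which part of the titin transcript each reads was not examined.

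At the Z-disc, ldb3a fell in every morphant group. It encodes a PDZ and LIM domain protein that binds alpha-actinin and is known in humans as ZASP or Cypher. It read 9.44, 9.39 and 9.41 in controls, 9.09, 9.05 and 9.02 in Atg7 morphants, 8.42, 8.46 and 8.43 in dual morphants and 7.77 on the Bdh2 array. The groups did not overlap and fell in the same order as for atp2a1l. Differences from controls were -0.36 ± 0.055 in Atg7 morphants (adjusted p = 0.00158), -0.98 ± 0.055 or 1.97-fold in dual morphants (adjusted p = 9.41e-08) and -1.64 ± 0.077 or 3.12-fold on the Bdh2 array (adjusted p = 3.59e-08). Its relative ldb3b differed by -0.06, -0.29 (adjusted p = 0.00439) and -0.64 (adjusted p = 0.000277) in the same order, and the first did not pass.

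Myozenin, a Z-disc protein that binds calcineurin in mammals, was lower in the dual morphants and on the Bdh2 array. The myoz1b probe set read 10.33, 10.36 and 10.39 in controls, 10.45, 10.44 and 10.56 in Atg7 morphants, 9.62, 9.80 and 9.80 in dual morphants and 9.27 on the Bdh2 array. Atg7 values lay slightly above the controls (0.12, adjusted p = 0.282), and dual values below both. The dual difference was -0.62 ± 0.067 against controls (adjusted p = 2.63e-05) and -0.74 against Atg7 morphants (adjusted p = 6.09e-06). The Bdh2 array lay 2.14-fold below controls (-1.09 ± 0.095, adjusted p = 6.45e-06). The alpha-actinins of striated muscle, which cross-link actin, were measured as actn3b (-0.18 in dual morphants, adjusted p = 0.0512) and actn2b (-0.04, adjusted p = 0.821).

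Creatine kinases, which buffer ATP in muscle, moved in both directions. The cytosolic ckma read 13.60, 13.59 and 13.54 in controls, 13.64, 13.60 and 13.65 in Atg7 morphants, 13.23, 13.19 and 13.29 in dual morphants and 12.88 on the Bdh2 array. The mitochondrial ckmt1, which is not particular to muscle, read 9.80, 9.76 and 9.70 in controls, 9.46, 9.45 and 9.53 in Atg7 morphants, 10.07, 10.15 and 10.10 in dual morphants and 10.26 on the Bdh2 array. Thus ckma was lowest, and ckmt1 highest, in dual morphants and on the Bdh2 array. Dual differences from controls were -0.34 ± 0.057 for ckma (adjusted p = 0.000683) and 0.35 ± 0.058 for ckmt1 (adjusted p = 0.000582). In Atg7 morphants ckmt1 lay below controls by 0.28 (-0.28, adjusted p = 0.0113; without the first control replicate 0.0509), whereas ckma did not pass (0.05). The second cytosolic gene, ckmb, differed by -0.10 in dual morphants (adjusted p = 0.194), and the second mitochondrial gene, ckmt2a, by -0.34 (adjusted p = 0.0331), which was lost without the first or the second control or the second or the third dual replicate (adjusted p = 0.0897 to 0.131). The ckmt2a call was lost with a replicate block too (limma, adjusted p = 0.0534).

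Of the 15 probe sets of smooth muscle and nonmuscle forms, 11 did not pass between dual morphants and controls. Of all 15502 probe sets, 10461 did not pass in this comparison either. This class also holds pvalb8, whose falls in Atg7 and dual morphants are given above. The nonmuscle essential light chain myl6 read 9.71, 9.77 and 9.71 in controls, 9.66, 9.71 and 9.71 in Atg7 morphants, 9.72, 9.70 and 9.71 in dual morphants and 10.33 on the Bdh2 array. The 9 replicated arrays kept within a narrow band, and the Bdh2 array alone stood above it (0.61 ± 0.076 against controls, adjusted p = 0.000118). The regulatory light chain gene myl12.1 was read by 3 probe sets that disagreed, with dual differences of -0.06 (adjusted p = 0.501), -0.28 (adjusted p = 0.0114, on the probe set with a suffix for shared probes) and -0.14 (adjusted p = 0.216, near the floor of the array). The tropomyosin tpm4b likewise had 1 probe set with a difference of 0.32 (adjusted p = 0.00313) and another with 0.04 (adjusted p = 0.764), both low in the array's range. The light chain myl9b, a smooth muscle form, differed by -0.31 (adjusted p = 0.039), a call lost without the first or the second control or the first or the second dual replicate (adjusted p = 0.0684 to 0.159). Between dual morphants and controls, myh9a, myh10, actn1 and tpm4a did not pass. The tropomyosin gene tpm4a was placed in this class by its name, and whether its signal came from heart or nonmuscle cells was not tested. The 3 probe sets with several symbols differed by -0.07, 0.17 and -0.03 in dual morphants, of which the second passed (adjusted p = 0.0257), and was lost without any 1 control or without the second or the third dual replicate (adjusted p = 0.0593 to 0.0904). Its call also ended with a replicate block (limma, adjusted p = 0.0579).

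Because the series holds each morpholino alone, the dual group could be set against the Bdh2 array and against the sum of the single differences. Against the Bdh2 array, dual morphants were higher for 21 of the 69 muscle probe sets and lower for 4, where 6.53% of all probe sets were higher and 5.53% lower. For atp2a1l the dual morphants stood 1.31 ± 0.098 above the Bdh2 array (adjusted p = 9.26e-06), for neb 0.83 above it (adjusted p = 0.000595) and for tnni2b.1 0.88 below it (-0.88, adjusted p = 0.000434). The departure from additivity, which is dual minus Atg7 minus Bdh2 plus control, was above 0 for 16 probe sets and below 0 for 3, where 3.81% of all were above and 4.32% below (8.13% called). For atp2a1l the single differences sum to -3.56 against -1.81 measured in dual morphants (departure 1.75 ± 0.120, adjusted p = 6.83e-06), and for neb they sum to -1.31 against -0.16 (departure 1.14 ± 0.137, adjusted p = 0.00039). Every value of this kind rests on the single Bdh2 array. If the stated concentration held for the sum of both morpholinos, dual embryos received less of each than embryos given 1. Dose and departure could then not be told apart, and this was not tested.

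**Figure D5:**
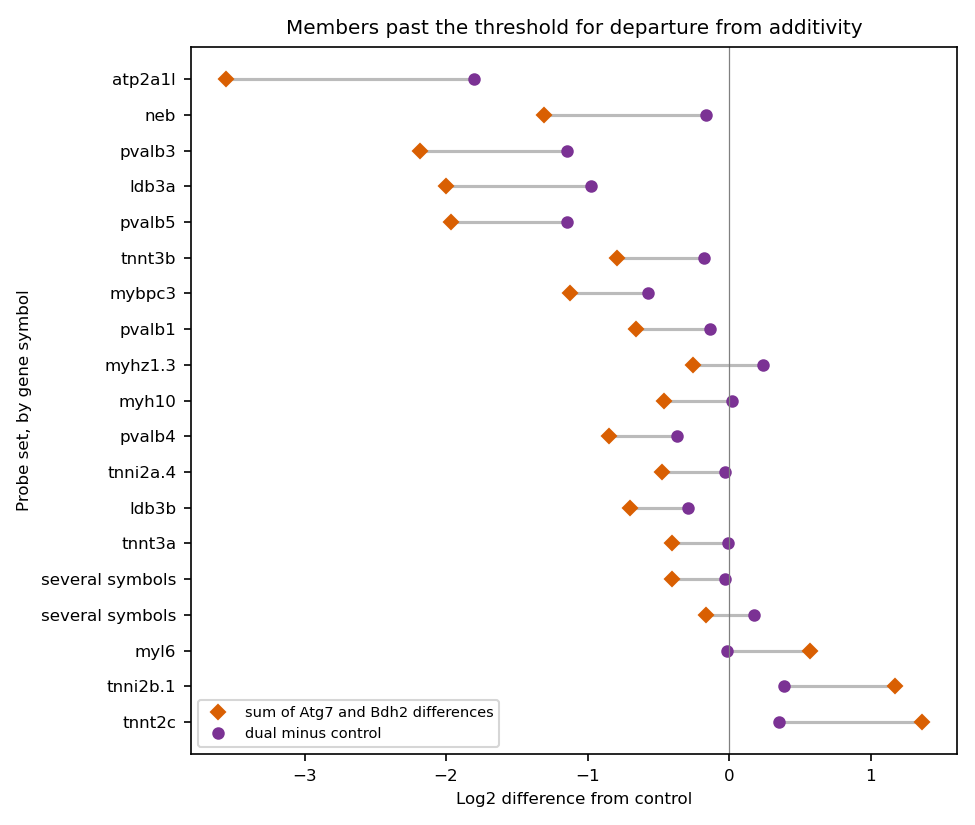
Log2 difference from controls (horizontal axis) for the 19 muscle probe sets past an adjusted p of 0.05 for the departure from additivity, 1 in each row. Circles are the measured dual morphant difference and diamonds the sum of the Atg7 and Bdh2 differences, and for atp2a1l they lie at -1.81 and -3.56.

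Lists of muscle genes outside the symbol rule were counted in the same fits, and their shares in dual morphants against controls stand against 16.7% higher and 15.9% lower over all probe sets. Of 18 probe sets (16 genes of 24 listed) for muscle energy supply, 2 rose and 10 fell, or 11.1% and 55.6%. The smallest p-values were those of pfkma, the muscle phosphofructokinase (-1.18, adjusted p = 8.95e-08), eno3, the muscle enolase (-0.73, adjusted p = 6.13e-06) and gamt, an enzyme of creatine synthesis (-0.44, adjusted p = 8.52e-05), and the same genes led against Atg7 morphants (-1.01, -0.76 and -0.41).

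Among 21 probe sets (19 genes of 51) for sarcomere assembly and the Z-disc, 3 rose and 12 fell in dual morphants, or 14.3% and 57.1%. There the muscle ubiquitin ligase trim55a differed by -0.62 (adjusted p = 5.79e-06), the myosin chaperone hsp90aa1.1 by -0.50 (adjusted p = 2.46e-05) and csrp1a, a LIM protein, by -0.48 and -0.60 on its probe sets (adjusted p = 8.06e-05 and 8.71e-05). A near copy of the chaperone, hsp90aa1.2, was higher (0.24 and 0.47, adjusted p = 0.0059 and 0.000683). Against Atg7 morphants csrp1a was lower by 0.73 and 0.78 (-0.73 and -0.78, adjusted p = 2.71e-06 and 1.1e-05), and hsp90aa1.2 was higher by 0.45 and 0.69 (adjusted p = 7.28e-05 and 4.23e-05). In Atg7 morphants against controls the list gave 4 rises and 5 falls, or 19% and 23.8%, where 6.26% of all probe sets rose and 3.64% fell. On the lone Bdh2 array the list did not stand low, with a median difference of -0.03 from controls. Its mean log2 level was 7.82 there, 7.80 to 7.83 in controls and 7.61 to 7.65 in dual morphants.

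Myogenic regulators gave 1 rise and 3 falls among 20 probe sets (14 genes of 27) in dual morphants, or 5% and 15%. The falls included mef2ca, a transcription factor of muscle differentiation (-0.27, adjusted p = 0.0114), and srfa, the serum response factor gene, on the first of its probe sets (-0.37, adjusted p = 0.0153) but not the second (-0.04, adjusted p = 0.873). The 4 probe sets of pax7a, a gene of muscle precursor cells that the nervous system also uses, disagreed, at -0.26 (adjusted p = 0.0176), 0.42 (adjusted p = 0.0208), 0.01 and -0.08, of which the last pair did not pass. Against Atg7 morphants, dual morphants were lower for myog, a transcription factor of muscle differentiation (-0.44, adjusted p = 0.00131), and for mef2ca (-0.31, adjusted p = 0.00498), and higher on the pax7a probe set that rose against controls (0.40, adjusted p = 0.0255).

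The triad and neuromuscular junction list gave 2 rises and 2 falls among 11 probe sets (10 genes of 33), or 18.2% each way. Of these, atp2a2a, the slow and cardiac calcium pump, stood at -0.93 (adjusted p = 3.95e-07) and -0.24 (adjusted p = 0.0137) on its probe sets, and musk, the receptor kinase of the junction, at 0.35 (adjusted p = 0.00349). Against Atg7 morphants, ache, the acetylcholinesterase of the junction and of neurons, was higher by 0.27 (adjusted p = 0.00799), and atp2a2a was at -0.98 (adjusted p = 2.67e-07) and -0.17 (adjusted p = 0.0643). Dystrophin complex and basement membrane genes gave 3 rises and 3 falls among 13 (10 genes of 26), or 23.1% each way, with parvaa, an adaptor of integrin adhesions, at 1.84 (adjusted p = 4.54e-07), sntb1, a syntrophin, at -0.65 (adjusted p = 6.59e-06) and cav3, the muscle caveolin, at 0.44 (adjusted p = 0.000263). Against Atg7 morphants these 3 stood at 1.90, -0.62 and 0.45 (adjusted p = 3.42e-07, 1.04e-05 and 0.000241).

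Heart regulators and hormones also gave 3 rises and 3 falls among 13 (11 genes of 19), or 23.1% each way. The list holds contractile genes of the heart too, and it shares mef2ca, given above, with the myogenic regulators. Here cmlc1, a heart light chain, stood at -0.41 (adjusted p = 0.000162), and isl1a, a transcription factor of heart precursors and motor neurons, at 0.42 on a probe set with a suffix for shared probes (adjusted p = 9.46e-05) and 0.00 on the other (adjusted p = 0.987). The probe sets of tbx5a, a heart and fin transcription factor, stood at 0.63 and -0.10 (adjusted p = 0.000683 and 0.36). Against Atg7 morphants cmlc1 was at -0.44 (adjusted p = 9.94e-05), tbx5a at 0.71 (adjusted p = 0.000276) and gata5, a transcription factor of heart and gut, at -0.53 (adjusted p = 0.000253).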

How the data were processed

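The authors deposited 1 log2 intensity per probe set and array, the log2 scale being inferred here from the range of the values. The submitters' processing notes name Affymetrix Expression Console. How probes were summarised, background-corrected and normalized is not given in the sources used here. With 1 value per probe set, precision is set by the number of arrays.

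Gene symbols came from GEO's platform annotation, updated by Entrez ID through RefSeq's gene table (GRCz12tu), which held all 66 members with 1 symbol. Per-array values are given for the members with the largest called changes in each comparison and the highest mean in each class, and from each other list the 3 probe sets with the smallest p-values in dual minus control and in dual minus Atg7 are named. The members and all lists were chosen with earlier results of these data known.

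A linear model with 4 groups was fitted to all 15502 probe sets on 10 arrays with limma 3.58.1 in R 4.3.3 (lmFit, eBayes; 6 residual degrees of freedom) and adjusted by Benjamini-Hochberg over all of them, with a threshold of 0.05. The lone Bdh2 array is assumed to vary like the other groups. The code was tested on simulated data. The alternatives were quantile normalization, a filter on low values, a variance trend, fewer probe sets, a replicate block and each array left out in turn. Whether replicate numbers pair the samples could not be decided. Of 9 same-numbered pairs of arrays, 2 had deviations from the group means that correlated above 0.1 (r -0.37 to 0.20). For pairs with different numbers r ran from -0.28 to 0.37. Deviations from the mean of so few arrays depend on each other. These correlations therefore cannot show whether same-numbered arrays shared a clutch or batch.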

Additional observations from a re-analysis of the deposited data

Results flagged for a closer look

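For 19 muscle probe sets, the Bdh2 morpholino went with a different change with the Atg7 morpholino than without it, by the test of that difference itself (limma, adjusted p under 0.05 over all 15502 probe sets). The value is the log2 difference of dual morphants minus Atg7 morphants, less that of the Bdh2 array minus controls. It rests on the 1 Bdh2 array, where the 3' to 5' gap of the actin control probe sets was largest. That gap was 4.30 there, with means of 3.45 in controls, 3.93 in Atg7 morphants and 3.86 in dual morphants. For GAPDH the Bdh2 array did not stand apart, at 1.70 with means of 1.58, 1.67 and 1.70 in the same groups. Whether dual embryos received as much of each morpholino as the single ones is not given. The part of dose and of 3' bias in these differences was not tested.

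It was above 0 for 16 of them. Among genes of calcium handling it was 1.75 for atp2a1l, 1.04 for pvalb3, 0.82 for pvalb5, 0.52 for pvalb1 and 0.48 for pvalb4. In the thin filament it was 1.14 for neb, 0.61 for tnnt3b and 0.40 for tnnt3a. For tnni2a.4 it was 0.44 on a probe set with a suffix for shared probes. The other tnni2a.4 probe set, at 0.32, did not pass. At the Z-disc it was 1.03 for ldb3a and 0.41 for ldb3b. Among myosins and their partners it was 0.55 for mybpc3, 0.49 for myhz1.3 and 0.48 for the nonmuscle heavy chain myh10. Probe sets with several symbols gave 0.37 and 0.34.

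In 3 it was below 0, at -1.01 for tnnt2c, -0.78 for tnni2b.1 and -0.59 for myl6. Of the 19 calls, 8 were lost in at least 1 other setting. Without the first or the second control or the second dual replicate the calls of tnnt3a, tnni2a.4, ldb3b, myh10 and both probe sets with several symbols ended, and other left-out arrays ended some of them too (adjusted p = 0.0525 to 0.103 over all such losses). With the replicate number as a block these 6 and those of pvalb4 and myhz1.3 ended (adjusted p = 0.0712 to 0.139). Quantile normalization also ended the calls of tnnt3a and of 1 probe set with several symbols, with departures of 0.28 and 0.27. Groups of 3 arrays were not searched for an array that stands apart.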

How the results depend on the processing

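Counts of called muscle probe sets moved by over 1.5 times in a few settings. In Atg7 morphants against controls, the variance trend gave 20 in place of 13, and leaving out 1 replicate at a time gave 8 to 13. The same range was 28 to 34 for dual morphants against controls (33 with all arrays), 27 to 35 against Atg7 morphants (35), 38 to 42 for the Bdh2 array against controls (41), 21 to 25 for dual morphants against it (25) and 13 to 19 for the departure from additivity (19). With the replicate number as a block the last pair of counts came to 15 and 11, and the variance trend gave 33 departures. The block gave 10, 30, 33 and 37 for the other comparisons. The cause was not tested. Quantile normalization moved the median over the members on the Bdh2 array from -0.25 to -0.20. Of 166 called pairs of a member and a comparison, 117 kept call and direction in all settings run, 49 lost the call in at least 1 and none reversed. Of the 248 pairs not called, sign turns numbered 130 over all settings, none of them called, on differences of at most 0.15. The comparisons with the Bdh2 group rest on 1 array.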
